A study of Mus musculus with 14 samples.

Results

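The genes described here encode the nuclear part of the mitochondrial respiratory chain: the subunits and namesake assembly factors of complexes I to V. They were taken as the gene symbols of both bulk count tables that begin with Nduf followed by a, b, c, s or v, with Uqcr, with Cox followed by 4 to 8, or with Atp5, together with Sdha, Sdhb, Sdhc and Sdhd. Of 100 matching symbols, 7 pseudogenes marked -ps were dropped, as were 3 genes with fewer than 10 counts in every library, which left 90 of the 50508 symbols. By role they were 36 subunits of complex I, 9 assembly factors of complex I, 4 subunits of complex II, 8 of complex III, 17 of complex IV and 16 of complex V. The 3 genes dropped for low counts were Cox4i2, Cox7b2 and Cox8c, each an isoform known from particular tissues.

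The respiratory chain carries electrons from NADH (complex I) and succinate (complex II) through coenzyme Q, complex III and cytochrome c to oxygen at complex IV, and complex V, the ATP synthase, uses the resulting proton gradient to make ATP. Complexes I, III, IV and V mix subunits from nuclear genes with a few subunits from mitochondrial DNA, while complex II is wholly nuclear. In T cells the amount and use of this chain are known to differ between resting, activated and exhausted states, so its transcripts are often read as part of a cell's metabolic profile.

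The libraries came from a mouse study of killer innate-like T cells (ILTCk), αβ T cells that infiltrate tumours, and of their progenitors in the thymus (ILTCkP). Each of 5 groups had 2 bulk RNA libraries. ILTCkP and CD8SP (CD8 single-positive thymocytes, the conventional lineage) came from the thymus of C57BL/6 mice, and the ILTCkP gate took cells with little or no CD4 and CD8α that did not bind the CD1d tetramer. The ILTCk groups, split into NK1.1+ ILTCk and NK1.1- ILTCk, were set against conventional T cells that bear PD-1 (PD1+ Tconv). The labels call the mice of these 3 groups retrogenic: such mice receive blood stem cells carrying an introduced T cell receptor, so that their T cells are those the transferred marrow makes. Per the labels' protocols the NK1.1+ cells were PD-1-negative and the PD1+ Tconv cells NK1.1-negative, both CD4-negative, CD8α-positive and sorted from tumours, whereas the gate and tissue of the NK1.1- cells, the tumour model, the ages and the number of animals behind each library are not stated in the labels. The characteristics call both ILTCk groups ILTCkP where the titles say ILTCk, and the titles were followed. The labels do not tie libraries to separate animals, although the design text calls them biological replicates, so the p-values reflect the variation among these libraries, which may be technical.

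Total counts ran from 16530085 to 32097301 per library, and the 90 genes took 1.38 to 1.91% of them. The 13 chain genes encoded in mitochondrial DNA were at 0 counts in every library, so only the nuclear part could be measured. Marker genes followed the thymic labels: Cd8b1 had 7.13 and 11.1 CPM (read counts divided by the library's TMM-scaled total) in ILTCkP, against 3043 and 2618 CPM in CD8SP. In the tumour table Klrb1c, which encodes NK1.1, had 309 and 68.6 CPM in NK1.1+ ILTCk and 29.9 and 12.4 CPM in NK1.1- ILTCk, against 39.5 and 2.35 CPM in PD1+ Tconv. Markers of other cells were strong there: the sum of 10 macrophage genes was 6325 and 17685 CPM in NK1.1+ ILTCk and 2896 and 2524 CPM in NK1.1- ILTCk, against 132 and 885 CPM in PD1+ Tconv, with none of the 10 at 0 in any of these libraries. The sum of 6 epithelial genes was 1733 and 2342 CPM in NK1.1+ ILTCk and 2446 and 3555 CPM in NK1.1- ILTCk, against 508 and 1716 CPM in PD1+ Tconv, again with none at 0. The sum of 7 salivary or lacrimal gland genes was 283348 CPM in PD1+ Tconv library 2, against 1448 CPM in library 1 of the group. Bpifa2 alone held 19.5% of the counts of that library 2. The gland sum was 42366 and 2044 CPM in NK1.1- ILTCk, and 1080 and 457 CPM in NK1.1+ ILTCk. Bpifa2 was also the top gene of NK1.1- ILTCk library 1, at 4.2% of its counts. The sum of 8 T cell genes was 3672 and 769 CPM in NK1.1+ ILTCk and 1919 and 1384 CPM in NK1.1- ILTCk. It was 5788 and 4034 CPM in PD1+ Tconv, and ran from 8052 to 11334 CPM in the thymus.

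Promoters of chain genes are known for binding sites of NRF1, of ETS factors such as GABPA, and of YY1. RefSeq promoter windows (GRCm38.p6, 250 bases before to 50 after the start) were matched for 76 of the 90 genes. The NRF1 letters GCGCANGCG, searched on both strands, were in 27.6% of the 76 windows, against 14.2% of windows of genes tested in the thymus and 6.47% of all windows. For the ETS letters CCGGAAG the shares were 22.4, 19.2 and 9.12%, and for the YY1 letters AAGATGGC 14.5, 4.91 and 2.88%. The windows of 5 genes follow, with matches in capitals. They were among the genes of their complex with the smallest adjusted p in the thymic comparison, and none of the 5 passed the edgeR test there. Uqcrc1 lies on the positive side of that comparison, and Ndufa4, Ndufs4, Atp5f1 and Atp5g3 on the negative side. The windows lie at chr9:108936398-108936697 on the plus strand (Uqcrc1) and on the minus strand at chr6:11907401-11907700 (Ndufa4), chr13:114388045-114388344 (Ndufs4), chr3:105959214-105959513 (Atp5f1) and chr2:73911277-73911576 (Atp5g3).
Uqcrc1: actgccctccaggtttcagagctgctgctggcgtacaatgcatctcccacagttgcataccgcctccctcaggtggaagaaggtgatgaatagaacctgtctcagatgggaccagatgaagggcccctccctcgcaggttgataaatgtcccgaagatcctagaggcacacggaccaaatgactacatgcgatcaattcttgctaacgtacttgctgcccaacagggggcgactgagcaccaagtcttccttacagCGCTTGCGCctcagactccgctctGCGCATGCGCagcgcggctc
Ndufa4: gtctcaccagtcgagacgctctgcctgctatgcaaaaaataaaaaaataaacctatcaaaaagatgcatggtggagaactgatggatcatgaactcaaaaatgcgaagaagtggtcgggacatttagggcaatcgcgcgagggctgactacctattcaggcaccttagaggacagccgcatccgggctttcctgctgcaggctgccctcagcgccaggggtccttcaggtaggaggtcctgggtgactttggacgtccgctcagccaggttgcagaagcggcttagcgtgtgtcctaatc
Ndufs4: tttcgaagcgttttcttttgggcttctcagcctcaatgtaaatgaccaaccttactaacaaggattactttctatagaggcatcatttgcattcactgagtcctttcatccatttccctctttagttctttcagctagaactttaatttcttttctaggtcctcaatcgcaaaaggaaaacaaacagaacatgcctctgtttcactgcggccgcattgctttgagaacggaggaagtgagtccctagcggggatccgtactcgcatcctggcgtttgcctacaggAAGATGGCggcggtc
Atp5f1: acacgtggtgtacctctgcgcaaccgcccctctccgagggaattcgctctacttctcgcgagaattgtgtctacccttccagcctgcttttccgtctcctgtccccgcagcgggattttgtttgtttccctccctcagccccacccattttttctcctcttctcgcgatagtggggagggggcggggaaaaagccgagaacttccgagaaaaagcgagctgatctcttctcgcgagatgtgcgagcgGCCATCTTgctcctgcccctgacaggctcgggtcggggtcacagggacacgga
Atp5g3: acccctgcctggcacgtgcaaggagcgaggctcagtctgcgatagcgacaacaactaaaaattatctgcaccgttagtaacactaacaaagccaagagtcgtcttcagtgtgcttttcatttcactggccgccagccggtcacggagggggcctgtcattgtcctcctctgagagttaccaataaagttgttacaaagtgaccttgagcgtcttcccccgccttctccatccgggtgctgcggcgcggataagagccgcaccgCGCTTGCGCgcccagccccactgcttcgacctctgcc
Uqcrc1 held NRF1 letters at 2 places near its start, the second of them on both strands, so that 3 matches were counted. Atp5g3 held 1 NRF1 match, Ndufs4 and Atp5f1 held 1 YY1 match each, and the Ndufa4 window held none of the 3 motifs. A match describes the letters only, and genes on either side of the comparison had matches.

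In ILTCkP against CD8SP, the chain's transcripts did not shift as a block: Uqcrc1 and Atp5a1 had higher values in both ILTCkP libraries, while Ndufa4, Atp5f1, Cox7b, Atp5g3 and Ndufs4 had lower values in both. None of the 87 genes tested passed edgeR's quasi-likelihood test at an adjusted p under 0.05, in either direction, where 3.38% of all 14634 genes tested were called higher and 1.33% lower. At an unadjusted p under 0.05 there were 2 genes on the higher side, Uqcrc1 among them, and 12 on the lower side, beside 22.1% of all genes in either direction. DESeq2 called 1 of the genes, Ndufa4, lower (adjusted p = 0.0253) and none higher, beside 4.82% of all genes called lower and 8.82% called higher. The 3 genes left untested for low counts were Cox6a2, Cox8b and Ndufa4l2.

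The 87 genes had a median log2 fold change of -0.18 in ILTCkP over CD8SP, where the median of all genes tested was 0.01, and the median standard error of a single gene was 0.25. Of the 87, 44 had both ILTCkP libraries below both CD8SP libraries (29.3% of all genes did) and 10 had both above (28.8% of all genes). Accessory subunits made up most of the first set: 33 of 54 lay below and 1 above, with a median of -0.21. Of the 22 core subunits, 8 lay below and 5 above, with a median of -0.02. That class takes in redox, catalytic, rotor and other central subunits, and holds no complex IV gene. The summed level of all 90 genes was 16399 ± 733 CPM in ILTCkP and 17353 ± 737 CPM in CD8SP (SD, n = 2 each), a difference about as large as the spread between libraries.

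**Figure D1:**
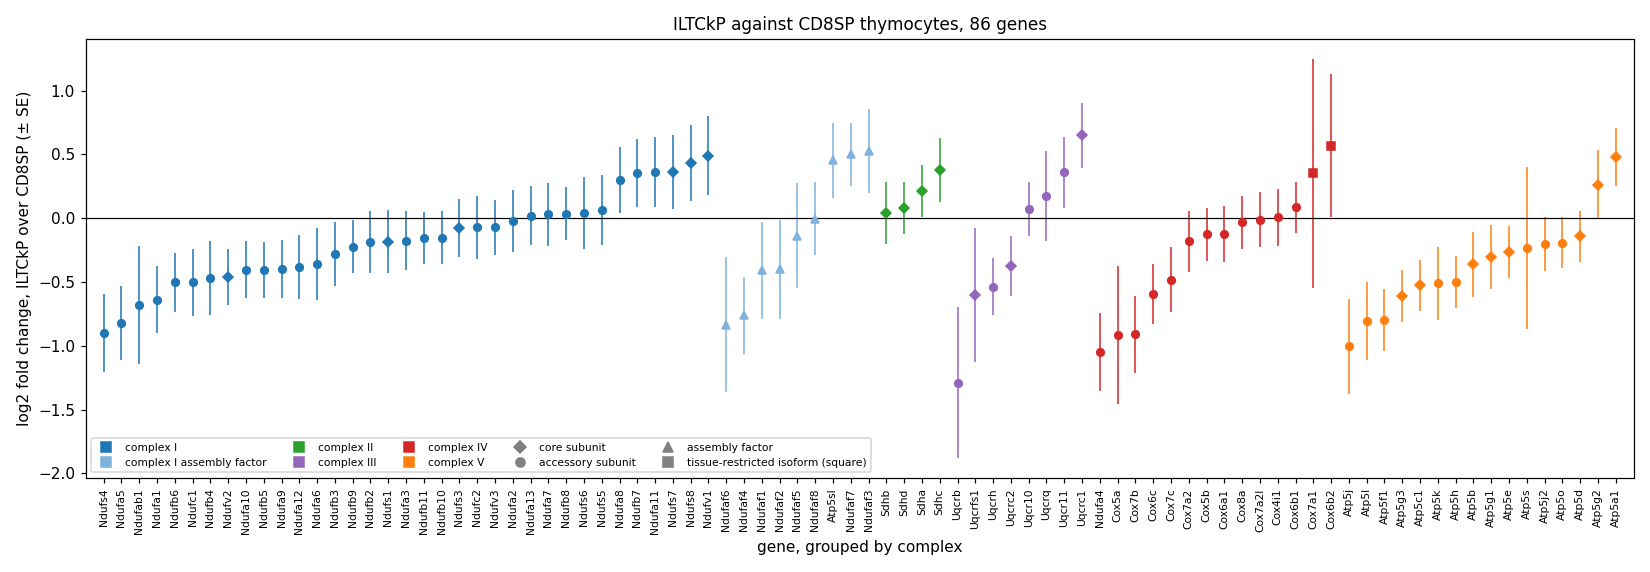
Log2 fold change of 86 of the 87 tested genes in ILTCkP over CD8SP, with bars of 1 standard error, grouped by complex and ordered within it; marker shapes give core subunits, accessory subunits, assembly factors and tissue-restricted isoforms. The 4 complex II genes lie above 0 (Sdhb and Sdhd by less than their bars, and Sdhb below 0 under 3 alternatives), and 14 of 16 complex V genes lie below it.

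Complex I oxidises NADH and is the largest complex of the chain. Ndufv1, which binds NADH and the flavin, had 448 and 256 CPM in ILTCkP, against 262 and 239 CPM in CD8SP, so library 2 of ILTCkP fell inside the CD8SP range. Ndufs7, with 272 and 167 CPM in ILTCkP against 178 and 163 CPM in CD8SP, and Ndufs8 showed the same pattern, in which library 1 alone stood out. Ndufs1, the large iron-sulfur subunit, had 107 and 149 CPM in ILTCkP, against 149.7 and 141 CPM in CD8SP, and differed by less than the spread between libraries.

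Accessory subunits of complex I mostly had lower values in ILTCkP. Ndufs4, a peripheral subunit needed for a stable complex, had 41.3 and 67.4 CPM in ILTCkP, against 97.8 and 105 CPM in CD8SP (log2 fold change -0.90 ± 0.30, edgeR adjusted p = 0.17). Ndufa5 had 21.5 and 26.2 CPM in ILTCkP, against 39.6 and 44.9 CPM in CD8SP, and Ndufa1 had 36.8 and 44.1 CPM in ILTCkP, against 60.2 and 65.8 CPM in CD8SP. For these 3 genes the groups did not overlap. Ndufab1, the mitochondrial acyl carrier protein, had 20.4 and 51.5 CPM in ILTCkP, against 53.8 and 61.6 CPM in CD8SP. A processed pseudogene of Ndufab1 among the dropped symbols had 22 to 170 counts per library, so reads of this gene may be split between copies. Among the assembly factors, which build the complex and leave it, Ndufaf7 had 58.6 and 58.3 CPM in ILTCkP against 41.2 and 41.5 CPM in CD8SP, and Ndufaf3 had 64.0 and 40.0 CPM in ILTCkP against 38.9 and 33.3 CPM in CD8SP. Ndufaf4 lay the other way, with 18.2 and 23.8 CPM in ILTCkP against 35.5 and 35.9 CPM in CD8SP (log2 fold change -0.76, but 0.13 ± 0.28 with an offset for transcript GC and length), and Ndufaf6 likewise, with 3.11 and 7.57 CPM in ILTCkP against 8.48 and 10.6 CPM in CD8SP. The edgeR adjusted p of these 4 factors lay between 0.22 and 0.40.

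Complex II, succinate dehydrogenase, had 4 of 4 fold changes above 0, none of them called, and that of Sdhb was -0.05 without CD8SP library 2, -0.21 without ILTCkP library 1 and -0.19 with an offset for transcript GC and length. Sdha, the flavin-bearing catalytic subunit, had 683 and 587 CPM in ILTCkP, against 569 and 526 CPM in CD8SP, and Sdhc, a membrane anchor, had 199 and 139 CPM in ILTCkP, against 131 and 129.5 CPM in CD8SP. The groups did not overlap in either gene. Sdhb, the iron-sulfur subunit, had 424 and 304 CPM in ILTCkP, against 376 and 331 CPM in CD8SP, which overlapped, as did Sdhd. The median over the 4 genes was 0.15 on the log2 scale.

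In complex III the neighbouring core proteins lay on opposite sides without the offset for transcript GC and length, and on the same side with it. Uqcrc1 (chr9:108936633-108949623, plus strand), whose promoter is printed above, had 913 and 632 CPM in ILTCkP, against 534 and 451 CPM in CD8SP, a log2 fold change of 0.65 ± 0.26 with an edgeR adjusted p of 0.22. Its partner Uqcrc2 had 184 and 247 CPM in ILTCkP, against 291 and 268 CPM in CD8SP, a log2 fold change of -0.38, or 0.02 ± 0.14 with the offset. Uqcrb, a small accessory subunit near the quinone site (chr13:66900617-66905378, minus strand), had the largest negative value, with 9.62 and 34.2 CPM in ILTCkP against 51.1 and 56.0 CPM in CD8SP (log2 fold change -1.29 ± 0.59, edgeR adjusted p = 0.27). Most of that size came from library 1: the log2 fold change was -0.64 ± 0.20 without it and -2.48 ± 0.24 without library 2. Uqcrh, the hinge protein, had 91.3 and 113 CPM in ILTCkP, against 151 and 146 CPM in CD8SP. The Rieske protein gene Uqcrfs1 had 39.3 and 120.0 CPM in ILTCkP, against 102 and 139.9 CPM in CD8SP, and the groups overlapped.

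Complex IV, cytochrome c oxidase, held the smallest adjusted p of all 90 genes. Ndufa4 (chr6:11900292-11907497, minus strand), once assigned to complex I and now to complex IV, had 78.8 and 134 CPM in ILTCkP, against 211 and 228 CPM in CD8SP, a log2 fold change of -1.05 ± 0.30 with an edgeR adjusted p of 0.12. Cox7b (chrX:106015700-106022450, plus strand) had 43.5 and 71.0 CPM in ILTCkP, against 107 and 109 CPM in CD8SP (-0.91 ± 0.30, edgeR adjusted p = 0.16). The groups did not overlap in either gene, nor in Cox6c, with 103 and 136 CPM in ILTCkP against 176 and 185 CPM in CD8SP, nor in Cox7c, with 41.1 and 41.4 CPM in ILTCkP against 54.3 and 60.8 CPM in CD8SP. Cox5a had 41.8 and 137 CPM in ILTCkP, against 149 and 188 CPM in CD8SP, so that library 1 lay far below the other 3. Cox4i1, the largest nuclear-encoded subunit, had 589 and 456 CPM in ILTCkP, against 540.1 and 500.0 CPM in CD8SP, with a log2 fold change of 0.01 ± 0.22. Cox5b had 138 and 126 CPM in ILTCkP, against 147 and 141 CPM in CD8SP. The general isoforms Cox6b1, Cox7a2 and Cox8a and the supercomplex factor Cox7a2l overlapped between the groups, with log2 fold changes of 0.08 ± 0.20, -0.18 ± 0.24, -0.03 ± 0.21 and -0.01 ± 0.21.

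Complex V had the lowest median, -0.33, and 13 of its 16 genes had both ILTCkP libraries below both CD8SP libraries (29.3% of all genes did). The catalytic β subunit gene Atp5b had 1677 and 2461 CPM in ILTCkP, against 2817 and 2502 CPM in CD8SP, while the α subunit gene Atp5a1, whose protein alternates with β in the same ring, had 2295 and 1757 CPM in ILTCkP, against 1539 and 1373 CPM in CD8SP. The rotor gene Atp5c1 (γ) had 353 and 398 CPM in ILTCkP, against 557 and 525 CPM in CD8SP (-0.53 ± 0.20, edgeR adjusted p = 0.20). Of the peripheral stalk, which holds the catalytic head still, Atp5f1 (subunit b, chr3:105942698-105960099, minus strand) had 175 and 248 CPM in ILTCkP, against 362 and 374 CPM in CD8SP (-0.80 ± 0.24, edgeR adjusted p = 0.14). Atp5j, another stalk subunit, had 56.1 and 117 CPM in ILTCkP, against 166 and 183 CPM in CD8SP. Atp5o, the stalk subunit that meets the head, had 193 and 178 CPM in ILTCkP against 212 and 211 CPM in CD8SP, and Atp5l, a membrane subunit, had 27.6 and 41.1 CPM in ILTCkP against 59.7 and 60.5 CPM in CD8SP. Of the 7 dropped pseudogenes 4 were named for Atp5l, its relative Atp5l2 or Atp5k, and the highest of these held 28 counts in a library.

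The 3 genes for subunit c, which differ in their import sequence but give the same mature ring protein, did not move as a set. Atp5g3 had 374 and 429 CPM in ILTCkP, against 639 and 587 CPM in CD8SP (-0.61 ± 0.20, edgeR adjusted p = 0.16), and Atp5g1 had 132 and 94.6 CPM in ILTCkP, against 144 and 136 CPM in CD8SP. Atp5g2 had 104 and 71.0 CPM in ILTCkP, against 75.5 and 70.1 CPM in CD8SP, and its libraries overlapped. Because the mature parts of the 3 transcripts are alike, their split depends on how the authors' counting treated shared reads.

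The 2 ILTCkP libraries differed from each other more than the 2 CD8SP libraries did. The median absolute difference between libraries of a group was 0.35 on the log2(CPM + 0.5) scale in ILTCkP and 0.10 in CD8SP over the 90 genes. The difference of ILTCkP library 1 from CD8SP library 1 followed the GC content of the transcript, with a Spearman coefficient across 86 genes of 0.62, and that of library 2 with one of 0.37. Between the 2 ILTCkP libraries it was 0.65, and between the 2 CD8SP libraries 0.28. Over all 14241 tested genes with an annotated transcript, the same coefficients were 0.47, 0.25, 0.46 and 0.08, so genes outside the chain showed the relation too. Transcript GC was 42.2% in Uqcrb, 42.0% in Cox7b and 44.1% in Ndufa4, on the negative side, and 57.5% in Uqcrc1, on the positive side, but Atp5j, also on the negative side, had 56.0%. The part of transcript composition in these differences was not tested beyond the values that follow.

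**Figure D2:**
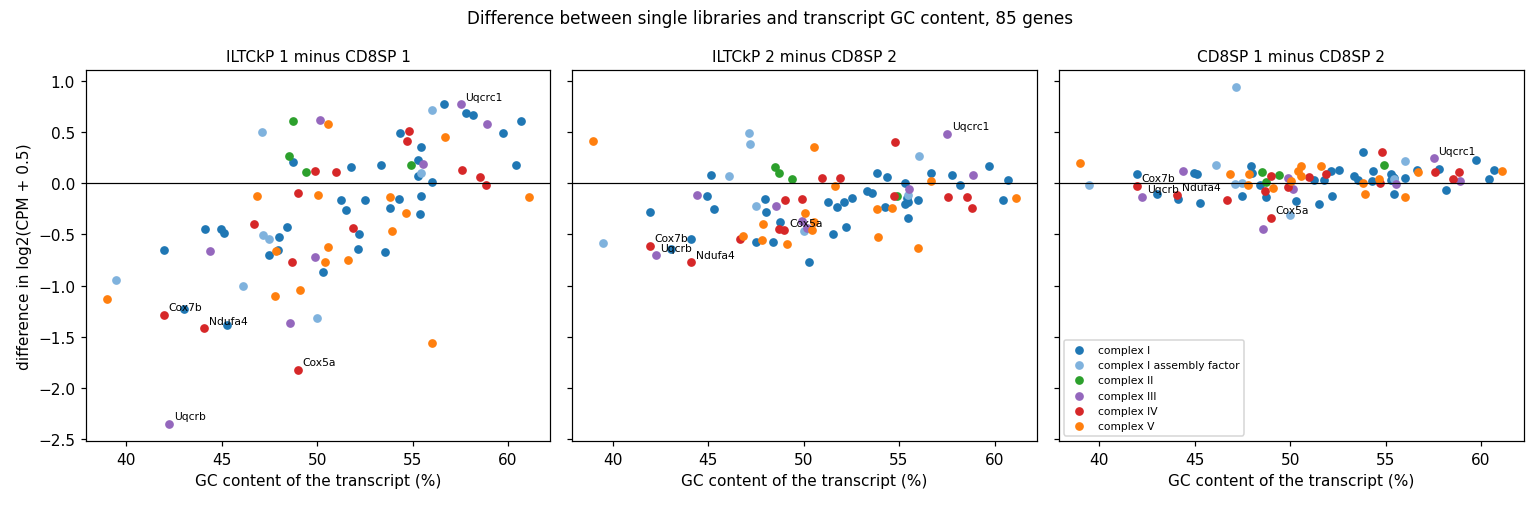
Difference in log2(CPM + 0.5) between single thymic libraries against the GC content of the transcript, for 85 chain genes coloured by complex; the first pair of panels sets each ILTCkP library against the CD8SP library of the same number, and the last panel sets the CD8SP libraries against each other. Library 1 of ILTCkP reaches -2.35 for Uqcrb and library 2 reaches -0.70.

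With an offset for transcript GC and length, an alternative chosen after the data were seen, the coefficient of the fold changes with GC was 0.04, where it was 0.60 without the offset. The log2 fold change with the offset was -0.42 ± 0.15 for Ndufa4, -0.18 ± 0.16 for Cox7b, -0.55 ± 0.37 for Uqcrb and 0.28 ± 0.14 for Uqcrc1. The values were -0.74 ± 0.17 (edgeR adjusted p = 0.072) for Atp5f1 and -0.50 ± 0.14 (edgeR adjusted p = 0.10) for Atp5g3. The median of the genes was -0.13 with the offset, where that of all genes was 0.03, and the sign of the fold change was the other one for 19 of the 87 genes. Again no chain gene passed the test, where 4.17% of all genes were called higher and 2.08% lower.

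The count of called genes rested on which ILTCkP library was used. Without library 1, edgeR called 1 of the genes higher (10.3% of all genes) and 10 lower (7.58%). Without library 2 it called 16 higher (22.5%) and 28 lower (22.3%). On the lower side, the genes called with either library left out were Atp5c1, Atp5f1, Atp5g3, Atp5j, Cox7b, Ndufa4, Ndufs4 and Uqcrb. The share of all genes called in both fits was not computed, so this overlap has no background beside it. Both of these fits set 1 ILTCkP library against the same 2 CD8SP libraries, and the spread they use then comes from the CD8SP pair. Without library 2 the calls also took in Ndufv1, Ndufs7, Ndufs8, Uqcrc1, Sdhc and Atp5a1 on the higher side. Atp5b, Uqcrc2, Uqcrfs1, Cox5a and Ndufab1 were then called on the lower side.

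In the tumour table, no chain gene passed the test in any of the 3 comparisons, and edgeR called none of the 18091 genes tested (0%) in any of them. NK1.1+ ILTCk against PD1+ Tconv gave a median log2 fold change of 0.05 over the 90 genes, beside -0.04 over all genes, and a median standard error of 0.48 for a single gene. NK1.1- ILTCk against PD1+ Tconv gave 0.03 beside -0.04, and NK1.1+ ILTCk against NK1.1- ILTCk gave 0.06 beside 0.01, or -0.11 without NK1.1- ILTCk library 1. At an unadjusted p under 0.05 there was no chain gene in any of the 3, beside 14.3% of all genes for NK1.1+ ILTCk against PD1+ Tconv, 11.9% for NK1.1- ILTCk against PD1+ Tconv and 3.94% between the ILTCk groups. DESeq2 called no chain gene, beside 3.67% of all genes called higher and 3.34% lower for NK1.1+ ILTCk against PD1+ Tconv. The shares were 2.16 and 1.75% for NK1.1- ILTCk against PD1+ Tconv, and 0.199 and 0.116% between the ILTCk groups. Both ILTCk comparisons share the PD1+ Tconv libraries.

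Those libraries decided both medians. The 90 genes summed to 16765 and 19007 CPM in NK1.1+ ILTCk and 15328 and 19304 CPM in NK1.1- ILTCk, against 12336 and 21367 CPM in PD1+ Tconv, whose libraries lay below and above all the others. Without PD1+ Tconv library 1 the median of NK1.1+ ILTCk over PD1+ Tconv was -0.38, and without library 2 it was 0.57. For NK1.1- ILTCk the values were -0.37 and 0.53. Of 84 genes with an annotated transcript that averaged 5 CPM or more in PD1+ Tconv, 76 were higher in library 2 than in library 1. Atp5sl, left out for want of an annotated transcript, had 34.2 CPM in library 1 and 27.5 CPM in library 2. Over the 84 genes the median difference was 0.93 on the log2(CPM + 0.5) scale. Across 89 genes with an annotated transcript, that difference had a Spearman coefficient of -0.60 with transcript length, beside -0.24 over all tested genes: short transcripts such as Uqcr11, with 75.0 CPM in library 1 and 294 CPM in library 2, had large differences. Sdha and Ndufs1, with longer transcripts, went the other way, with 341 and 183 CPM for Sdha and 94.5 and 47.7 CPM for Ndufs1. The relation did not hold for every gene: Atp5g1, Ndufaf4 and Ndufab1, with annotated transcripts of 4715, 3632 and 3479 nt, were higher in library 2 by 1.58, 0.48 and 0.73 on the log2(CPM + 0.5) scale. Library 2 is also the library with the highest gland sum given above. The part of transcript length or of gland genes in the difference was not tested.

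**Figure D3:**
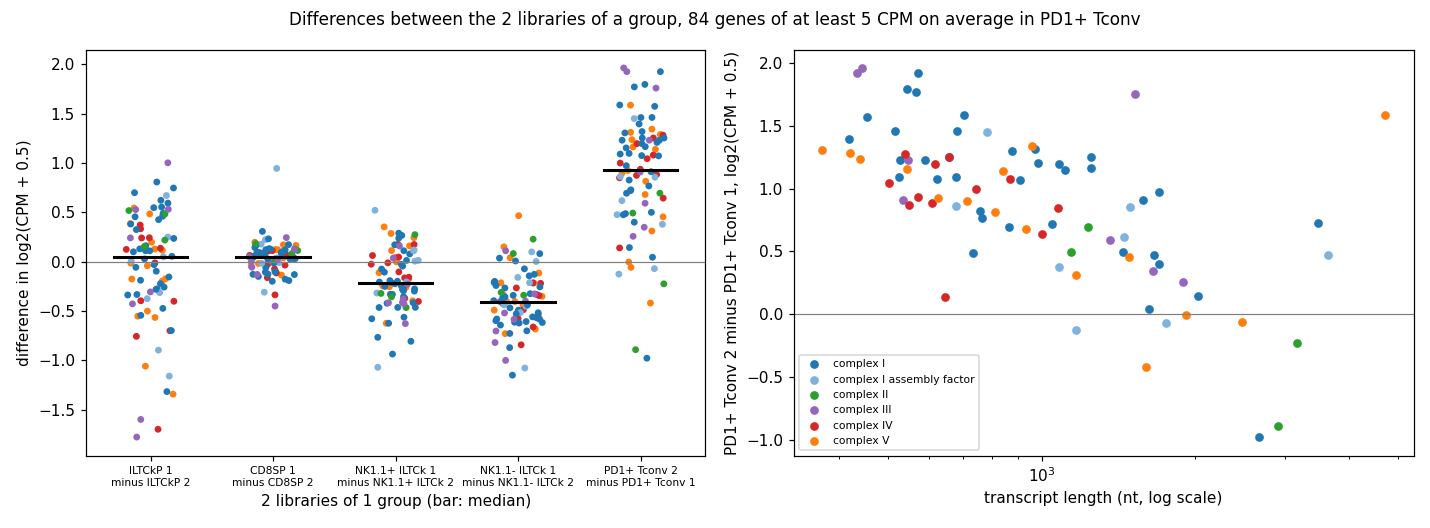
Left, difference in log2(CPM + 0.5) between the 2 libraries of each group for 84 chain genes, with a bar at the median; right, the PD1+ Tconv difference (library 2 minus library 1) against transcript length on a log axis, coloured by complex. The PD1+ Tconv points have a median of 0.93, and the CD8SP points cluster most tightly.

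Few chain genes had libraries that did not overlap between NK1.1+ ILTCk and PD1+ Tconv. There were 9 with both NK1.1+ libraries above both PD1+ Tconv libraries (20.7% of all genes) and 2 below (20.8%), both counts lying under the background. Ndufv1 had 172 and 212 CPM in NK1.1+ ILTCk against 107 and 149 CPM in PD1+ Tconv, and Ndufa9, an accessory subunit, had 164 and 207 CPM against 102 and 145 CPM. Ndufaf7 had 33.2 and 41.5 CPM in NK1.1+ ILTCk, against 25.2 and 24.0 CPM in PD1+ Tconv. Ndufaf4, an assembly factor, was on the other side, with 14.3 and 13.2 CPM in NK1.1+ ILTCk against 21.7 and 30.4 CPM in PD1+ Tconv (-0.92 ± 0.42, edgeR adjusted p = 0.39). Core subunits had 19 of 22 fold changes above 0, with a median of 0.24, and accessory subunits 26 of 54, with a median of 0.00. Of all 18091 genes, 8772 were above 0. All 4 complex II genes were above 0, as in the main thymic fit, with a median of 0.35. Both NK1.1+ libraries lay above both PD1+ Tconv libraries in 6 of the 22 core subunits and 1 of the 4 complex II genes. These medians were not refitted without a PD1+ Tconv library, and the PD1+ Tconv libraries differ with transcript length, as given above.

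NK1.1- ILTCk gave a like picture against the same PD1+ Tconv libraries. There were 8 genes with both NK1.1- libraries above (23.1% of all genes) and 4 below (22.7%). Ndufa9 had 159 and 199 CPM in NK1.1- ILTCk, against 102 and 145 CPM in PD1+ Tconv (0.53 ± 0.39, edgeR adjusted p = 0.61). Uqcrc2 had 190 and 273 CPM in NK1.1- ILTCk against 158 and 189 CPM in PD1+ Tconv, and Atp5b had 1561 and 1519 CPM against 1227 and 1224 CPM. Ndufaf4 had 15.5 and 21.4 CPM in NK1.1- ILTCk against 21.7 and 30.4 CPM in PD1+ Tconv, and Atp5sl, an assembly factor of complex I in spite of its name, had 24.8 and 23.9 CPM against 34.2 and 27.5 CPM. The 9 assembly factors of complex I had 7 values below 0 and a median of -0.19, beside 9445 of all 18091 genes below 0. This median was not refitted without a PD1+ Tconv library.

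Between the ILTCk populations 12 genes had both NK1.1+ libraries above both NK1.1- libraries (18.6% of all genes) and 4 below (18.9%). Cox5a had 94.6 and 125 CPM in NK1.1+ ILTCk, against 77.2 and 92.9 CPM in NK1.1- ILTCk (0.37 ± 0.36). Sdhc had 70.9 and 91.0 CPM in NK1.1+ ILTCk against 65.6 and 62.0 CPM in NK1.1- ILTCk. Ndufv1 had 172 and 212 CPM in NK1.1+ ILTCk against 154 and 153 CPM in NK1.1- ILTCk. The adjusted p by edgeR was 1.00 for each of them. Ndufa4, given above for the thymus, had 254 and 243 CPM in NK1.1+ ILTCk against 266 and 310 CPM in NK1.1- ILTCk (-0.21 ± 0.43). In bulk samples, fewer cells of a given type and less RNA per cell cannot be told apart. The macrophage genes given above differ between these groups in the same direction as the NK1.1 label. The summed epithelial genes and the summed gland genes were instead higher in both NK1.1- libraries. The part of such cells in the values was not tested.

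**Figure D4:**
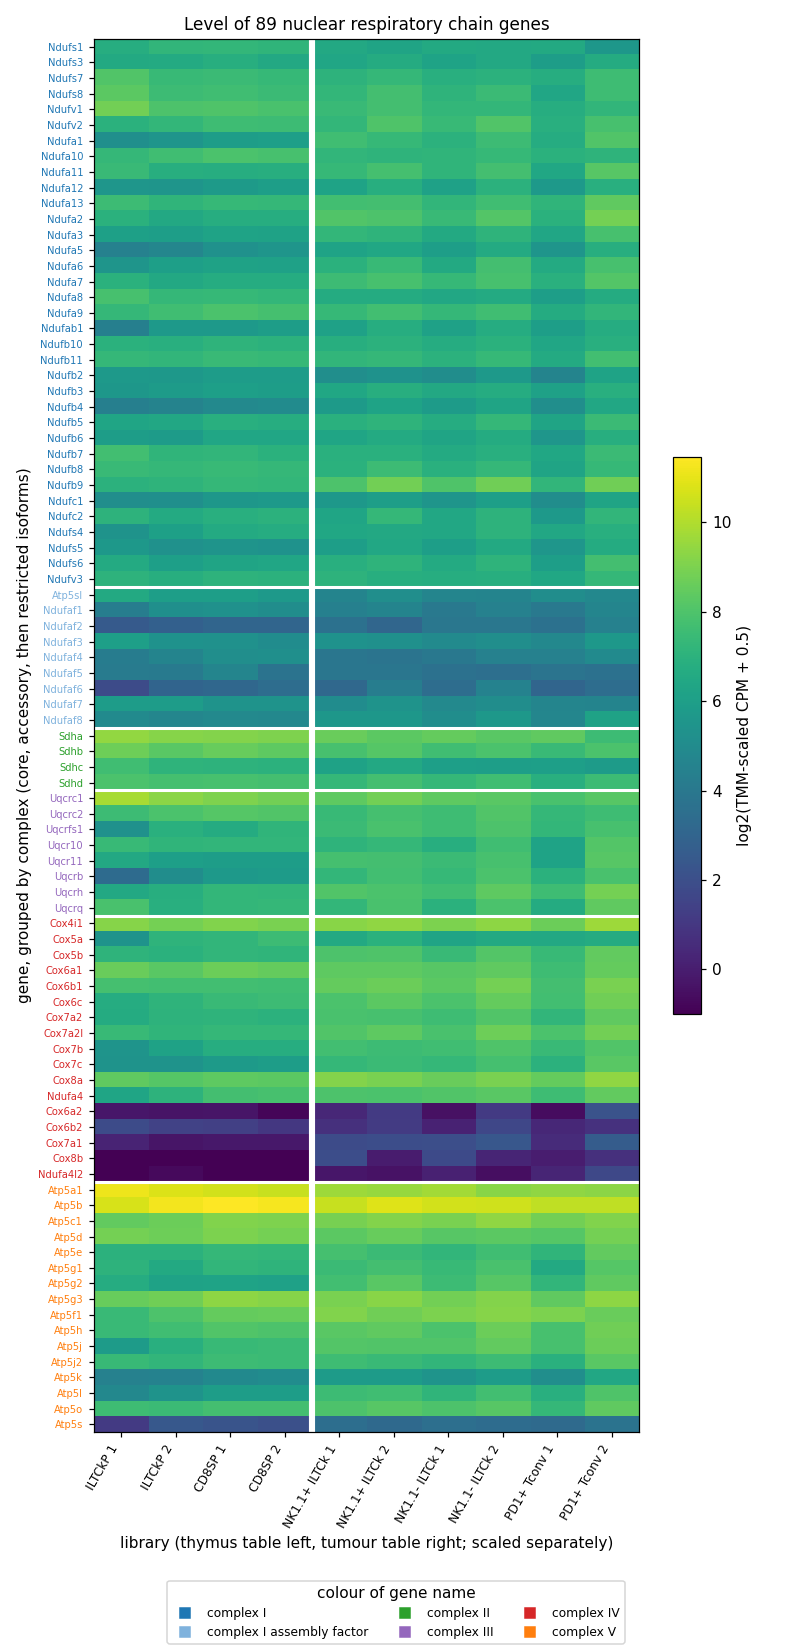
Level of 89 of the 90 genes in each of the 10 libraries as log2(CPM + 0.5), rows grouped by complex and, within it, by core subunit, accessory subunit and tissue-restricted isoform; the thymus and tumour tables were scaled separately. The 5 tissue-restricted isoforms of complex IV form the dark band, at 5.67 CPM or less in every library.

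The isoforms of complex IV known from muscle, fat, testis or low oxygen were near the floor in every group. Cox6a1, the general form of its subunit, had 393 and 312 CPM in ILTCkP and 398 and 370 CPM in CD8SP, while the heart and muscle form Cox6a2 had 0.355 and 0.276 CPM in ILTCkP, against 0.31 and 0.063 CPM in CD8SP. Cox8b, another muscle and brown fat form, was at 0 counts in all 4 thymic libraries and had 3.40 and 0.45 CPM in NK1.1+ ILTCk and 2.92 and 0.73 CPM in NK1.1- ILTCk, against 0.51 and 1.13 CPM in PD1+ Tconv. Cox7a1, the heart and muscle partner of Cox7a2, had 3.04 and 3.34 CPM in NK1.1+ ILTCk and 3.43 and 4.70 CPM in NK1.1- ILTCk, against 0.96 and 5.67 CPM in PD1+ Tconv, so the PD1+ Tconv libraries lay on either side. Ndufa4l2, the form induced by low oxygen in other tissues, had 0.36 and 0.27 CPM in NK1.1+ ILTCk and 0.62 and 0.18 CPM in NK1.1- ILTCk, against 0.73 and 2.76 CPM in PD1+ Tconv. Its log2 fold change was -2.44 ± 1.16 in NK1.1+ ILTCk (edgeR adjusted p = 0.40) and -2.07 ± 1.13 in NK1.1- ILTCk (edgeR adjusted p = 0.50) over PD1+ Tconv. Cox6b2, a testis form, was between 0.65 and 3.11 CPM in the 10 libraries.

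Markers of muscle, and the fat marker Fabp4, moved with some of these isoforms. The sum of 8 skeletal muscle genes was 298 CPM in PD1+ Tconv library 2 and 7.49 CPM in library 1, with 0 of the 8 at 0 counts in library 2 and 1 in library 1. Library 2 also had the highest Cox6a2, Cox7a1 and Ndufa4l2 of the table. Cox8b, at 1.13 CPM there, lay below library 1 of NK1.1+ ILTCk (3.40 CPM) and of NK1.1- ILTCk (2.92 CPM). Sums of 4 erythroid and 5 stromal genes were highest there too, at 660 and 205 CPM, against 61.6 and 49.5 CPM in PD1+ Tconv library 1. So was the gland sum given above. The skeletal muscle sum was 8.22 and 2.98 CPM in NK1.1+ ILTCk and 9.21 and 66.0 CPM in NK1.1- ILTCk. In the thymus it was 41.0 and 59.1 CPM in ILTCkP, against 20.5 and 16.1 CPM in CD8SP, with 4 and 3 of the 8 at 0 counts in ILTCkP and 3 in each CD8SP library. The sum of 6 adipocyte genes was 68.9 CPM in PD1+ Tconv library 2, of which Fabp4 had 65.7 CPM, and Ucp1 and Adipoq were below 1 CPM in every library. Cfd had 1.62 CPM there against 2.35 CPM in NK1.1+ ILTCk library 2, and Cidea had 0.405 CPM there against 0.958 CPM in NK1.1- ILTCk library 2. The part of such cells in these isoforms was not tested.

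Per kilobase of transcript, the order of the chain genes was led by Atp5b in the thymus, at 1080 CPM per kb in ILTCkP and 1388 CPM per kb in CD8SP. Next came Atp5a1 in ILTCkP, at 820 CPM per kb, but Atp5g3 in CD8SP, at 859 CPM per kb. Cox4i1 had the next level in both, at 701 CPM per kb in ILTCkP and 698 CPM per kb in CD8SP. In the tumour table Cox8a, a small nuclear subunit of complex IV, led NK1.1+ ILTCk at 960 CPM per kb and PD1+ Tconv at 951 CPM per kb, while Atp5b led NK1.1- ILTCk at 804 CPM per kb, with Cox8a next at 797. These orders rest on 1 transcript length a gene, and neighbours within the replicate spread are not ordered by them.

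The complexes also took different shares of the chain's counts in the thymus and tumour tables. Complex IV took 13.4 and 13.7% of the counts of the 90 genes in ILTCkP and 14.6 and 15.3% in CD8SP. In the tumour table its share was 21.5 and 19.8% for NK1.1+ ILTCk. It was 20.0 and 21.6% for NK1.1- ILTCk, against 20.5 and 23.2% for PD1+ Tconv. Complex II lay the other way, with 9.17 and 7.87% in ILTCkP and 7.29 and 7.14% in CD8SP. Its tumour shares were 5.0 and 4.78% for NK1.1+ ILTCk. They were 5.14 and 4.25% for NK1.1- ILTCk, against 5.66 and 3.16% for PD1+ Tconv. Within the thymus, complex V took 37.5 and 42.3% in ILTCkP, against 43.2 and 42.3% in CD8SP. Tissue, mouse model and table differ together between the sets, so these cannot be told apart, and no test was made between them.

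**Figure D5:**
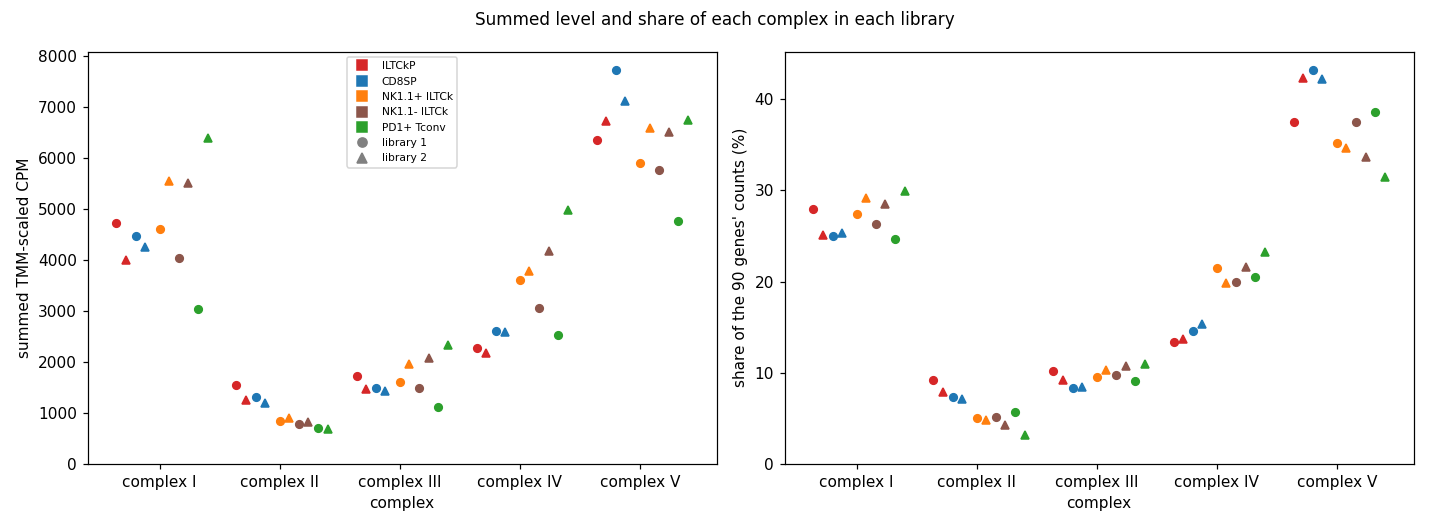
Left, summed TMM-scaled CPM of each complex; right, its share of the counts of the 90 genes, in each of the 10 libraries (circles library 1, triangles library 2, colours for groups). Complex IV lies at 13.4 to 15.3% in the 4 thymic libraries and at 19.8 to 23.2% in the 6 libraries of the tumour table.

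Of 17 genes of the citrate cycle and pyruvate dehydrogenase, none passed the test in any comparison, and the median log2 fold change was 0.08 in ILTCkP over CD8SP, 0.35 in NK1.1+ ILTCk over PD1+ Tconv and 0.33 in NK1.1- ILTCk over PD1+ Tconv. Of 20 genes for cytochrome c, coenzyme Q and its suppliers, none passed in the thymus, where the median was 0.16. The smallest adjusted p there belonged to Gpd2, which feeds electrons from glycerol 3-phosphate to coenzyme Q, with 143 ± 10.6 CPM in ILTCkP and 72.7 ± 5.59 CPM in CD8SP (SD, n = 2 each; log2 fold change 0.98 ± 0.22, edgeR adjusted p = 0.071). Coq9 and Coq8b, needed to make coenzyme Q, had log2 fold changes of 0.98 ± 0.25 and 1.18 ± 0.30 (edgeR adjusted p = 0.096 and 0.092). Of 35 tested assembly factors outside the symbol rule none passed, and Lyrm7, a chaperone of the Rieske protein, came closest, with 4.28 ± 0.315 CPM in ILTCkP and 15.0 ± 1.75 CPM in CD8SP (-1.81 ± 0.36, edgeR adjusted p = 0.052). The 82 tested mitochondrial ribosome genes had a median of -0.07 in the thymus and none passed.

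Among 16 regulators of mitochondrial biogenesis 1 passed the test in the thymus. Ppargc1a, the coactivator PGC-1α, rose in ILTCkP, with 52 and 60 counts (2.05 and 1.84 CPM) against 0 counts in both CD8SP libraries (edgeR adjusted p = 0.034). That is at least 39.0-fold higher when 3 counts are set over the CD8SP group. Skeletal muscle also expresses Ppargc1a, and some muscle markers moved with that gene. Myl1 had 16.3 and 40.3 CPM in ILTCkP against 0 in both CD8SP libraries, and Ckm had 15.4 and 9.32 CPM in ILTCkP against 1.17 and 0.063 CPM in CD8SP. Mylpf lay the other way, with 9.22 and 8.77 CPM in ILTCkP against 17.9 and 14.7 CPM in CD8SP. So did Tnnt3, with 0 and 0.582 CPM in ILTCkP against 1.34 and 1.20 CPM in CD8SP. Acta1 was at 0.123 CPM or less and Tnnc2 at 0 in all 4 libraries, and Myh4 and Pvalb were at 0 in ILTCkP. The part of such cells in the Ppargc1a value was not tested. Myc had 557 ± 98.9 CPM in ILTCkP and 316 ± 28.4 CPM in CD8SP (0.82 ± 0.23, edgeR adjusted p = 0.11), and Tfam, the packaging and transcription factor of mitochondrial DNA, had 77.8 ± 2.44 CPM in ILTCkP and 113 ± 0.762 CPM in CD8SP (-0.53 ± 0.21, edgeR adjusted p = 0.22; SD and n = 2 for each mean). In the tumour table none of the 16 passed, and 2 of 16 fold changes were above 0 in each ILTCk group against PD1+ Tconv. The medians were -0.29 for NK1.1+ ILTCk and -0.34 for NK1.1- ILTCk, and were not refitted without a PD1+ Tconv library. Several regulators were higher in PD1+ Tconv library 1 than in library 2, such as Gabpa (77.1 and 22.2 CPM) and Hif1a (170 and 93.6 CPM). Yy1 was level (37.2 CPM in each), and Ppargc1a (0.987 and 14.4 CPM) and Tfb1m (9.33 and 11.3 CPM) lay the other way. Of the other tumour values, Bcs1l, which inserts the Rieske protein into complex III, averaged 29.6 ± 1.19 CPM in NK1.1+ ILTCk and 23.1 ± 0.611 CPM in NK1.1- ILTCk, against 12.5 ± 0.226 CPM in PD1+ Tconv (SD, n = 2 each), with an edgeR adjusted p of 0.235 for NK1.1+ ILTCk and 0.419 for NK1.1- ILTCk. Cox17, a copper chaperone of complex IV, averaged 14.8 ± 1.83 CPM in NK1.1+ ILTCk and 13.7 ± 0.455 CPM in NK1.1- ILTCk, against 33.3 ± 6.81 CPM in PD1+ Tconv (SD, n = 2 each), with an edgeR adjusted p of 0.275 for NK1.1+ ILTCk and 0.361 for NK1.1- ILTCk.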

How the data were processed

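Bulk RNA of 10 libraries was analysed; 4 single-cell libraries of the series were not analysed here. The values are raw read counts per gene symbol, as deposited by the authors in 1 table for the thymus and 1 for the tumour groups. The submitters' processing notes name mm10, DESeq, Cell Ranger 3.0.2 and Seurat 2.3.4. No source used here names the aligner, the annotation or the strand setting of the counting, so reads of overlapping, antisense or near-identical genes could not be separated.

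Each table was fitted on all its genes with edgeR 4.0.16 in R 4.3.3 (filterByExpr, TMM scaling, robust quasi-likelihood test, group as the only term, Benjamini-Hochberg adjustment over all genes tested, threshold 0.05). The standard error of a log2 fold change was taken from the F statistic. The tumour fit used all 6 libraries. Levels are TMM-scaled CPM, comparable within a table only. The scripts were tested on simulated data. Transcript length and GC came from 1 GENCODE M21 transcript a gene, protein-coding and best supported where there was a choice, and promoters from RefSeq.

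Named genes were core subunits, isoform sets, up to 4 genes of each complex and comparison with the smallest adjusted p, up to 4 per direction with the largest fold change among non-overlapping genes of mean log2 CPM of at least 4, and up to 3 of each related list. The values of 1 gene are not reported here; it counts in all totals and medians. The genes and lists were chosen with earlier results of these data known. Alternatives were DESeq2 1.42.0, other scalings and filters, a replicate block, each library left out, and a transcript GC and length offset added after the data were seen.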

Additional observations from a re-analysis of the deposited data

How the results depend on the processing

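In the tumour table no chain gene was called in any comparison under any alternative run. For NK1.1+ ILTCk against PD1+ Tconv, DESeq2 called 3.67% of all genes higher and 3.34% lower, and no low-count filter gave 2.13 and 1.77%. For NK1.1- ILTCk against PD1+ Tconv the shares were 2.16 and 1.75%, and 1.37 and 1.13%. Between the ILTCk groups they were 0.199 and 0.116%, and 0.397 and 0.125%. In ILTCkP against CD8SP the counts of called genes changed: DESeq2 called 0 higher and 1 lower, and a fit with no low-count filter called 1 higher and 6 lower, beside 6.79% of all genes called higher and 3.97% lower. Leaving out each library in turn gave 0 to 16 called higher and 0 to 28 called lower, with a median log2 fold change of -0.22 to -0.11. Without PD1+ Tconv library 1 or 2 the median was -0.38 or 0.57 for NK1.1+ ILTCk and -0.37 or 0.53 for NK1.1- ILTCk over PD1+ Tconv, and between the ILTCk groups it ran from -0.11 to 0.26. Where leaving out a library leaves 1 in a group, that library is assumed to vary like the others. With RLE or upper-quartile scaling, or at least 50 counts in 2 libraries, no chain gene was called. In ILTCkP against CD8SP these settings called 3.49, 3.41 and 4.94% of all genes higher and 1.38, 1.44 and 2.05% lower. In the tumour table they called 0% of all genes. Why the counts differ was not tested.

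A fit with the replicate block called 1 gene higher and 7 lower in the thymus, beside 8.66 and 6.46% of all genes. It called 0 chain genes in each tumour comparison, beside 2.39% of all genes higher and 1.79% lower for NK1.1+ ILTCk against PD1+ Tconv. For NK1.1- ILTCk against PD1+ Tconv the shares were 0.912 and 0.735%, and between the ILTCk groups 0% each way. The labels give the libraries only a shared number, and deviations of same-numbered libraries correlated with r = 0.16 in the thymus and 0.35 to 0.39 in the tumour table, with 2 replicates a group.

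With the offset for transcript GC and length, chosen after the data were seen, the log2 fold change in ILTCkP over CD8SP changed sign for 19 of 87 genes, among them Cox4i1 (-0.21), Cox7a2l (0.044), Cox7c (0.034), Ndufaf4 (0.13), Sdhb (-0.19) and Uqcrc2 (0.023). In NK1.1+ over NK1.1- ILTCk it changed sign for Ndufa4 (0.11) and Ndufaf4 (0.066) among the genes named there. Sdhb also changed sign without CD8SP library 2 (-0.05) and without ILTCkP library 1 (-0.21). Complex IV genes with fold changes near 0 changed sign with small values: Cox4i1 with upper-quartile scaling (-0.0017) and the replicate block (-0.0044), and Cox7a2l with RLE scaling (0.00083) and DESeq2 (0.00080). With each library left out they ran from -0.18 to 0.18 for Cox4i1, -0.40 to 0.012 for Cox7a2, -0.13 to 0.10 for Cox7a2l and -0.15 to 0.082 for Cox8a.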

Other observations

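Among the pairs given here, partner subunits that stand in equal numbers had count ratios apart between the thymic groups, except Cox4i1 over Cox5a. The pairs were chosen after their values were seen, so no test was made. Atp5a1 over Atp5b was 1.37 and 0.714 in ILTCkP, against 0.546 and 0.549 in CD8SP. Uqcrc1 over Uqcrc2 was 4.97 and 2.56 in ILTCkP, against 1.83 and 1.69 in CD8SP. Ndufv1 over Ndufv2 was 3.61 and 1.70 in ILTCkP, against 1.35 and 1.31 in CD8SP. In these 3 pairs both ILTCkP libraries lay above both CD8SP libraries, and library 1 lay further away than library 2. Cox4i1 over Cox5a was 14.1 and 3.33 in ILTCkP, against 3.62 and 2.66 in CD8SP, and the groups overlapped. Sdha over Sdhb was 1.61 and 1.93 in ILTCkP, against 1.51 and 1.59 in CD8SP. In this pair both ILTCkP libraries again lay above, but library 2 lay further away than library 1. Transcript GC is 57.5% in Uqcrc1 and 44.4% in Uqcrc2, and 50.5% in Atp5a1 and 51.6% in Atp5b. It is 56.7% in Ndufv1 and 42.0% in Ndufv2, and 57.6% in Cox4i1 and 49.0% in Cox5a. It is 48.5% in Sdha and 54.9% in Sdhb. The part of GC content in the ratios was not tested.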
